A study of Mus musculus with 12 samples.

Results

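Trigeminal ganglia of mice with a corneal wound were set directly against ganglia of mice that had received only electrical stimulation around the eye. The difference rests on 6 of the 12 libraries of the series, 3 from each side, taken by their titles. The remaining 6 libraries, 3 from untreated mice and 3 from mice with both wound and stimulation, shared the fit and its estimate of spread. Untreated ganglia also place each gene, by whether the injured level, the stimulated level or both on the same side stood away from control. Values against control carry a trend on GC content and transcript length, described below, that was not taken out.

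All groups were female C57BL/6J mice aged 8 weeks, and no label names a transgene, a drug model or diabetes, although the title of the series speaks of diabetic neuropathy. In the injured mice the epithelium and outer stroma of a 1.5 mm disc of the central cornea had been removed from a randomly chosen eye under ketamine and xylazine, with Ethiqa XR, an extended-release buprenorphine, as analgesic, and tissue was taken 2 weeks later. The stimulated mice had no wound. A biphasic ramp current of 300 µA at 20 Hz was passed for 4 min a day over 14 days between a probe on the skin around the orbit and an electrode on the abdomen, under isoflurane. Anaesthetic, analgesic and handling differed together with wound and current, so their parts cannot be told apart. Controls are labelled untreated, and no library is labelled as sham stimulated. Neither the number of mice behind a library nor the side of the ganglion is given, so p-values reflect only how much the libraries vary, which may be technical.

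The trigeminal ganglion holds the cell bodies of the sensory neurons that supply the cornea and face, each wrapped by satellite glia. Schwann cells ensheathe their axons in the ganglion and the peripheral nerve. Along the central root, near the brainstem, oligodendrocytes and astrocytes take over, and meninges cover the root. Fibroblasts, vessels and resident macrophages fill the space between the neurons.

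Among these 6 libraries the total count ran from 7952798 to 10751547, and levels are given as CPM, the count per 1000000 counted reads after TMM scaling. The deposited counts fit reads placed on the GRCm38 genome but counted in GRCm39 intervals. The 36.02% of nuclear intervals that touch a GRCm38 exon carried 98.63% to 99.3% of the nuclear counts, while exons moved by 1000000 bases took in 49.09% to 55.72%. Each interval was therefore named by the GRCm38 gene whose exons it covered, which gave 4771 tested genes, each measured only through the exons under its interval. For 75% of these genes exons made up less than 50% of the interval, so intronic reads may be included. The tissue label fits the sensory neuron markers, with Uchl1 at 3203, 4085 and 3809.6 CPM after injury and 3846, 3221 and 2831 after stimulation, and Avil at 927, 991 and 981 CPM after injury and 1471, 1317 and 1409 after stimulation. Correlations between libraries of the same group (0.935 to 0.974) overlapped with those between groups (0.914 to 0.969).

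Injured and stimulated ganglia differed at 1877 of 13053 intervals (14.4%), of which 1000 (7.66% of all) were higher and 877 (6.72%) lower after injury. Throughout, the log2 difference is injury minus stimulation alone with its standard error, n = 3 libraries a group, and a gene is called at an adjusted p under 0.05 (edgeR quasi-likelihood test, Benjamini-Hochberg over all intervals). Among named genes 446 of 4771 were higher (9.35%) and 348 lower (7.29%), with a median log2 difference of 0.03, and these are the shares against which each gene group below is read. With no filter on low counts the split turned, to 742 intervals higher and 1127 lower and to 341 named genes higher and 460 lower. The 3 injured libraries lay above all 3 stimulated ones for 21.2% of named genes and below them for 17.5%. The same fit called 19.5% of named genes higher and 12.6% lower after injury against control, and 18.5% higher and 13.8% lower after stimulation against control. Those 2 comparisons use the same 3 control libraries, so their values are set side by side and no overlap between them is given. Single libraries moved the count of 1877. It was 1018, 1045 and 1141 without injury replicate 1, 2 or 3 and 903 without stimulation replicate 3. Without stimulation replicate 1 the higher calls fell to 571, and without replicate 2 of the wounded and stimulated group the lower calls rose to 1426.

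Transcript length moved with the difference across the whole table. Genes with transcripts under 1 kb had a median log2 difference of 0.49 (209 genes), those of 3 to 4 kb one of 0.03 (943 genes), and those over 8 kb one of −0.28 (443 genes). In the shortest class 18.2% of genes were called higher and 0% lower, and in the longest 3.61% higher and 14.7% lower. Relative to the mean of all 12 libraries, the median for genes over 8 kb was 0.38 in stimulation replicate 3, against −0.03 and −0.04 in stimulation replicates 1 and 2 and −0.12, −0.31 and −0.15 after injury. Stimulation replicate 3 thus stood apart from the other 2 of its group, and above the controls, which lay between 0.24 and 0.31. Across 4769 genes the rank correlation of the difference was −0.35 with transcript length and −0.19 with GC content, given as a description since genes are not independent. Against control the correlation with GC content was stronger, at 0.45 after injury and 0.63 after stimulation. With transcript length it was −0.35 after injury and −0.04 after stimulation. After a smooth trend on length and GC content was taken out of every library, 450 of the 794 called named genes (56.7%) kept their call. None of those changed sign, while 147 others became called. For genes named below, the value without this trend is given wherever that ends a call between the treatments. List counts keep the trend unless stated. All values against control keep it, since without the trend only the direct difference was computed, and its part in them was not tested. Without it higher oligodendrocyte calls went from 8 to 7 and shared myelin calls from 5 to 4. Lower calls fell for sodium and calcium channels (6 to 4), potassium and HCN channels (3 to 2) and astrocyte genes (1 to 0). They rose for synaptic vesicle (5 to 7) and neurotrophic genes (4 to 5). Higher calls rose for immediate early (4 to 5), satellite glial (2 to 3) and neurotrophic genes (0 to 1), and fell for fibroblast and matrix genes (6 to 5). What part length plays in the differences was not tested.

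**Figure D1:**
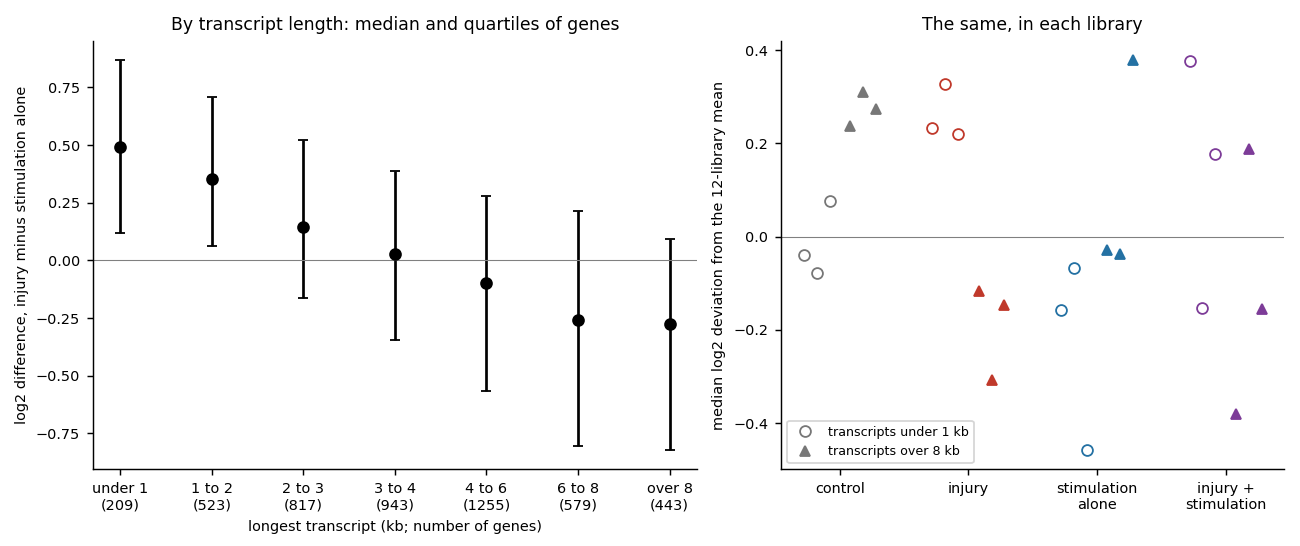
Log2 difference (injury minus stimulation alone, vertical axis) by transcript length in kilobases (horizontal axis, classes), with the median and the middle range of genes in each class, and the median deviation of each library for the shortest and the longest class. Medians run from 0.49 under 1 kb to −0.28 over 8 kb, and stimulation replicate 3 lies at 0.38 in the longest class.

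Oligodendrocyte and myelin genes were higher in injured than in stimulated ganglia. Of 30 oligodendrocyte markers listed, 9 could be named and tested. Of these 8 were called higher and none lower, with a median log2 difference of 1.10 beside 0.03 for all named genes. Mog, a surface protein of central myelin, was measured at 149, 77.2 and 133 CPM after injury, 34.7, 43.7 and 22.7 after stimulation and 36.5, 25.3 and 24.2 in controls. Every injured library lay above every stimulated and control library, while stimulated and control libraries overlapped. The log2 difference of Mog was 1.83 ± 0.32 (adjusted p = 0.0017), and against control it was 2.06 after injury and 0.23 after stimulation (adjusted p = 0.64). Enpp6, a choline phosphodiesterase of newly formed oligodendrocytes, stood at 23.4, 10.8 and 19.9 CPM after injury and 5.33, 5.95 and 4.22 after stimulation. Its difference was 1.80 ± 0.37 (adjusted p = 0.0044), again with stimulation close to control (0.02). Cldn11, the tight junction protein of central myelin, differed by 1.56 ± 0.34 (adjusted p = 0.0067), a call lost without stimulation replicate 3 (adjusted p = 0.055). Pdgfra, a marker of oligodendrocyte precursors that fibroblasts also express, was the member that did not pass (0.45 ± 0.53, adjusted p = 0.63).

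Several myelin genes were higher than control in both treatments and still higher after injury than after stimulation. Mag, which holds the myelin sheath to the axon, had 371, 236 and 366 CPM after injury, 159.8, 170.4 and 101 after stimulation and 106, 70.4 and 59.5 in controls. Injured libraries lay above all stimulated and control libraries, which overlapped with each other, and Mag was 2.04 above control after injury (adjusted p = 0.00025) and 0.87 after stimulation (adjusted p = 0.018). The direct difference was 1.17 ± 0.26 (adjusted p = 0.0066). Fa2h, which hydroxylates myelin fatty acids, was at 344, 320.3 and 311 CPM after injury, 168, 145 and 141 after stimulation and 87.7, 96.0 and 77.3 in controls, with no overlap between any of the 3 groups and a direct difference of 1.10 ± 0.18 (adjusted p = 0.00096). Cnp, a cytoplasmic enzyme of myelin, followed the same steps (0.96 ± 0.19, adjusted p = 0.0034). Mal, a raft protein of myelin, differed by 1.04 ± 0.15 (adjusted p = 0.00047), with 0.70 against control after injury (adjusted p = 0.0035) and −0.34 after stimulation (adjusted p = 0.103). Of the 9 tested genes that myelin of Schwann cells shares or that mark it, 5 were called higher and none lower. Mag, Cnp and Mal are on this list and on the oligodendrocyte list, so the counts overlap and are not separate evidence for oligodendrocytes. Prx, periaxin of Schwann cell myelin, did not pass (0.08 ± 0.28, interval −0.50 to 0.66, adjusted p = 0.88). In whole tissue a larger number of such cells and more RNA per cell cannot be told apart. Without stimulation replicate 3 the oligodendrocyte count was 5 of 9.

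Of 10 tested genes of astrocytes, which share the central root with oligodendrocytes, 7 were higher than control after injury and none lower. After stimulation 6 were higher and 1 lower, the glutamate transporter gene Slc1a3 (−1.11, adjusted p = 0.028). Between the treatments 3 were higher and 1 lower after injury. Agt, the angiotensin precursor made by astrocytes, had 104, 74.4 and 98.4 CPM after injury, 33.9, 57.6 and 29.4 after stimulation and 23.1, 20.1 and 11.9 in controls. No group overlapped with another, and the direct difference was 1.20 ± 0.25 (adjusted p = 0.0049). Stimulation replicate 2 was the highest of its group for Agt, and so it was for Dao (10.3, 23.6 and 3.82 CPM) and for Cbln3, a gene of cerebellar granule cells, at 2.78, 70.0 and 2.39 CPM. Of 24 listed genes of pituitary and brain, 5 were tested, none was called higher after injury and 2 were lower (3 with the length and GC trend taken out). Slc17a7, a glutamate transporter gene given below with synaptic vesicle genes, is 1 of these 2. The part of such tissue in the glial differences was not tested. Among 9 satellite glial genes 2 were called higher and 1 lower. Cdh19, a cadherin of Schwann cells and satellite glia, was below control in both treatments (−1.12, adjusted p = 0.00304, and −1.60, adjusted p = 0.00024) and the treatments did not differ past the threshold (0.48 ± 0.24, interval −0.02 to 0.99).

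**Figure D2:**
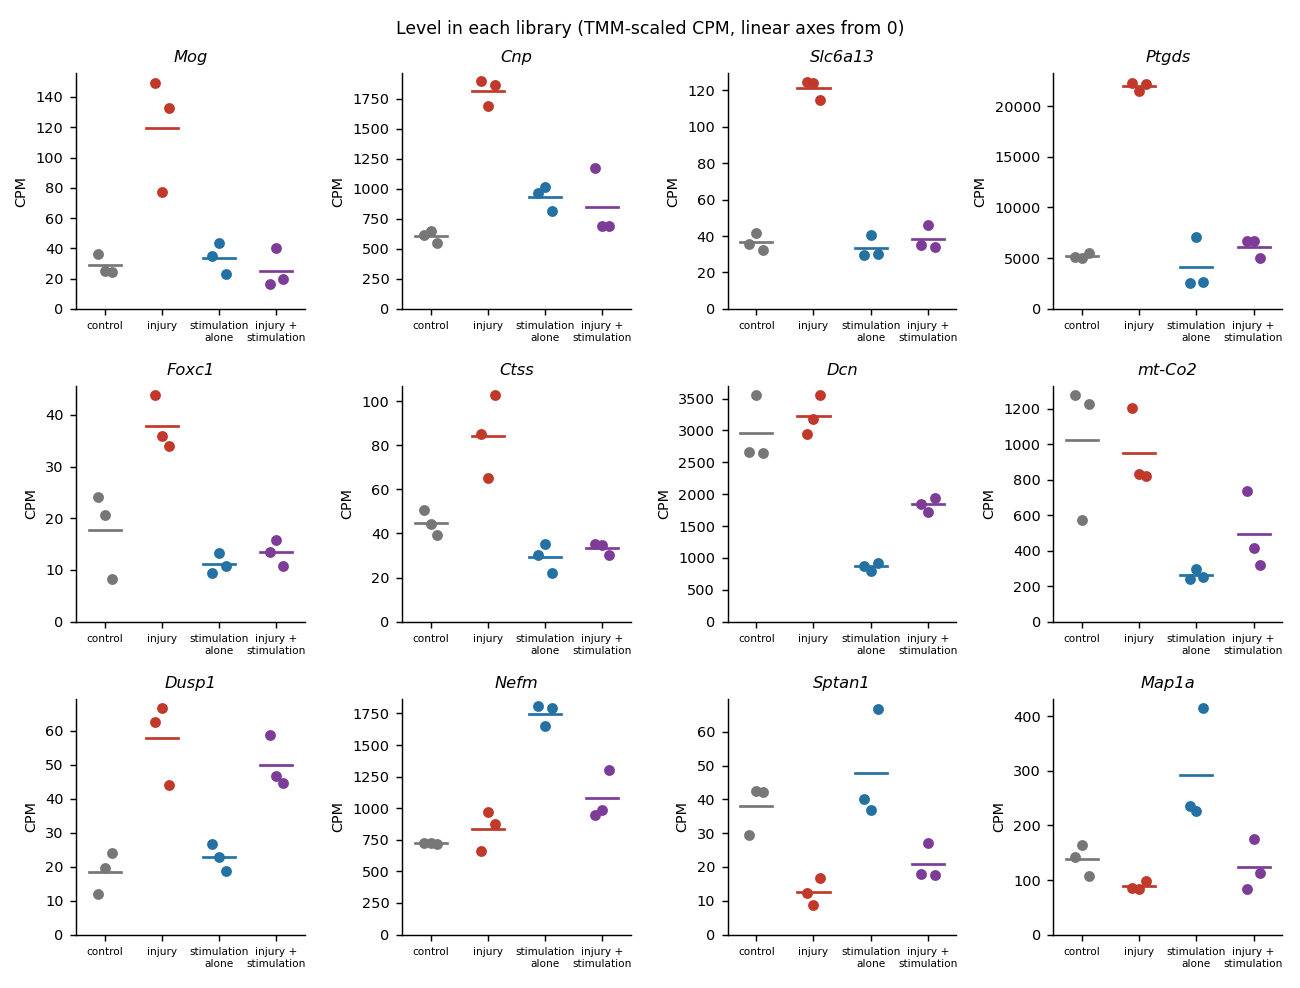
Level in TMM-scaled CPM (vertical axes, linear from 0) of 12 genes in every library of the 4 groups (horizontal axes), with 1 point a library and a line at the group mean. For Mog the injured libraries lie at 77.2 to 149 CPM and the stimulated ones at 22.7 to 43.7, and for Nefm the order is turned, with 663 to 971 CPM after injury and 1647 to 1808 after stimulation.

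Genes of the meninges were also higher after injury than after stimulation. Of 25 listed meningeal and arachnoid markers 12 were tested, 8 were called higher after injury and none lower, and the median log2 difference was 1.78. Ptgds, the prostaglandin D synthase of arachnoid cells and oligodendrocytes, reached 22254, 21520.5 and 22182 CPM after injury, against 2563, 7112 and 2685 after stimulation and 5103, 5053 and 5523 in controls. Injured libraries lay above all stimulated and control libraries, and stimulation replicate 2 lay above the controls while replicates 1 and 3 lay below them. The difference of Ptgds was 2.42 ± 0.31 (adjusted p = 0.00019). Slc6a13, a GABA and taurine transporter of the leptomeninges, had 125, 124 and 115 CPM after injury and 29.5, 40.8 and 30.1 after stimulation, the latter overlapping with controls (35.8, 41.7 and 32.6). It differed by 1.86 ± 0.17 (adjusted p = 1.1e-05).

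Slc6a20a, a proline transporter, was measured at 44.5, 25.8 and 36.7 CPM after injury, 18.4, 15.1 and 16.5 in controls and 4.41, 7.94 and 7.40 after stimulation, with no overlap. It was 1.09 above control after injury (adjusted p = 0.026) and −1.33 relative to control after stimulation (adjusted p = 0.011), which gave a direct difference of 2.43 ± 0.37 (adjusted p = 0.00057). Ranbp3l, which exports SMAD proteins from the nucleus and is not on the list, also stood above control after injury and below it after stimulation (55.3, 44.8 and 49.2 CPM after injury, 5.45, 17.4 and 7.64 after stimulation; direct difference 2.29 ± 0.35, adjusted p = 0.00054). Foxc1, a forkhead factor needed for the meninges to form, stood at 43.8, 36.0 and 34.0 CPM against 9.39, 13.2 and 10.8 (1.77 ± 0.29, adjusted p = 0.00095). The organic anion transporter gene Slc22a8 (1.79 ± 0.42, adjusted p = 0.0095, and 0.055 without stimulation replicate 3) and the proteoglycan gene Bgn (1.08 ± 0.21, adjusted p = 0.00297) were also called, while Cdh1, encoding E-cadherin, was not (0.26 ± 0.15, adjusted p = 0.28).

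Fibroblast and matrix genes divided among themselves. Of 17 tested members 6 were called higher and 1 lower after injury, with a median of 0.49. Dcn, a proteoglycan that binds collagen, had 2945, 3175 and 3553 CPM after injury, 2659, 3557 and 2641 in controls and 873, 802 and 927 after stimulation. Injured and control libraries overlapped and all stimulated libraries lay below both. The direct difference of 1.89 ± 0.17 (adjusted p = 1.1e-05) thus came with a stimulated level below control (−1.77, adjusted p = 2.2e-05) and an injured level near it (0.13, adjusted p = 0.58). Fn1, fibronectin, differed by 1.68 ± 0.29 (adjusted p = 0.0013), with 179, 123 and 128 CPM after injury and 26.9, 58.2 and 48.6 after stimulation, and it was above control after injury (1.04, adjusted p = 0.012). Pcolce, which helps to process procollagen, differed by 1.02 ± 0.18 (adjusted p = 0.0015). Fbln2, a basement membrane protein, went the other way, at 22.0, 24.0 and 25.0 CPM after injury and 58.0, 55.6 and 86.4 after stimulation (−1.50 ± 0.21, adjusted p = 0.00036). Without injury replicate 1 or 2, or without stimulation replicate 1, 4 matrix genes were called higher.

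Markers of other tissues moved with these groups. The summed level of the 2 tested red cell genes, Alas2 and Slc4a1, was 67.8, 82.4 and 75.5 CPM after injury and 11.6, 29.7 and 13.4 after stimulation, and both were called higher (Alas2 2.11 ± 0.35, adjusted p = 0.00101). The Slc4a1 call was lost without injury replicate 2 or 3 or stimulation replicate 1 or 3 (adjusted p up to 0.15). The 11 tested skeletal muscle genes summed to 351, 716 and 466 CPM after injury, 138, 141 and 151 after stimulation and 179.9, 68.5 and 955 in controls, so the injured range lay inside that of the controls. Among them 3 were called higher, and this count was 1 without injury replicate 2, without stimulation replicate 1 or 3, and without replicate 1 or 2 of the wounded and stimulated group. Of 3 tested lymphocyte, neutrophil and mast cell genes 2 were called higher. Mcpt4, a protease of connective tissue mast cells that are common in meninges, had 12.8, 15.2 and 9.16 CPM against 2.32, 4.74 and 4.38 (1.69 ± 0.32, adjusted p = 0.0025), and Ms4a1, the B cell antigen CD20, had 6.32, 2.34 and 5.41 against 0.116, 1.21 and 0.239. The Ms4a1 call (adjusted p = 0.0096) was lost without stimulation replicate 3 (adjusted p = 0.055). Hdc, which makes histamine in mast cells, did not pass (−0.13 ± 0.59, adjusted p = 0.91). What part carried-over tissue has in the myelin, meningeal and matrix differences was not tested.

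**Figure D3:**
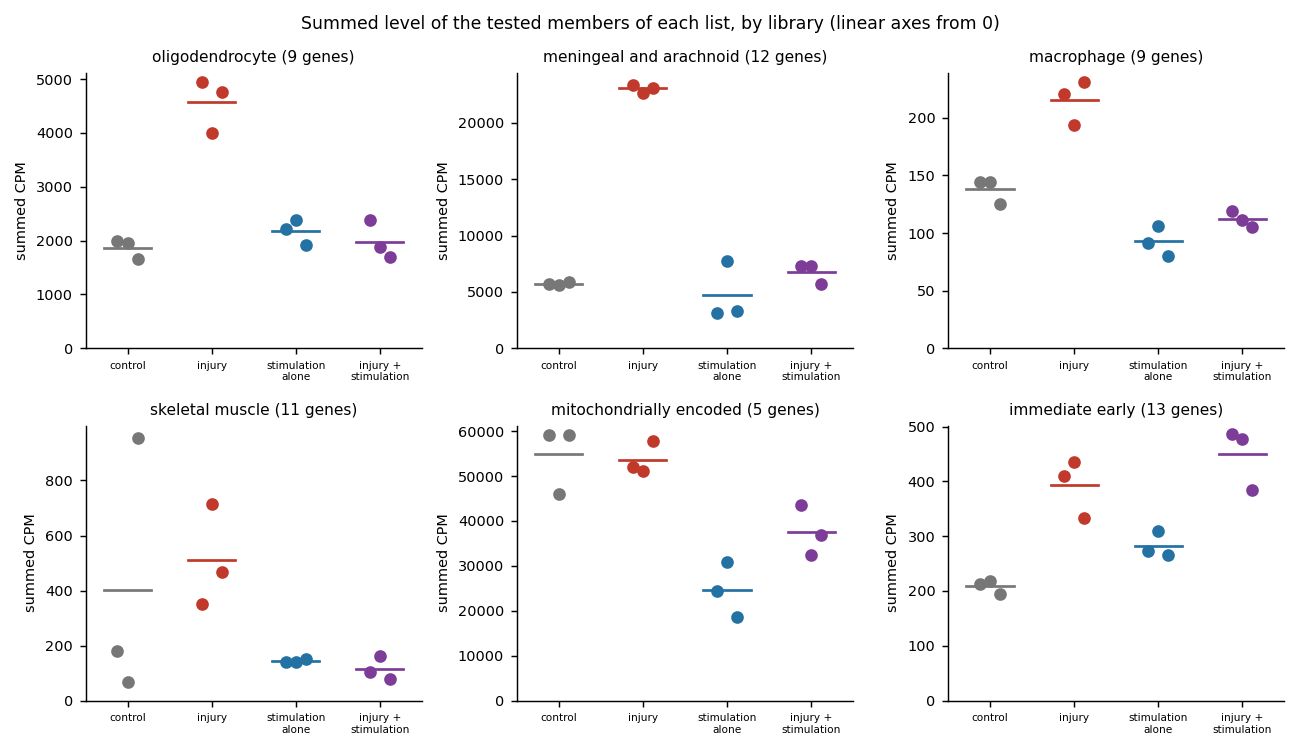
Summed level in CPM (vertical axes, from 0) of the tested members of marker lists in every library of the 4 groups (horizontal axis), with 1 point a library and a line at the group mean. The oligodendrocyte sum is 3990.3 to 4945 after injury and 1917 to 2381 after stimulation, and the macrophage sum is 194 to 231 and 80.4 to 106.

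Of 9 tested macrophage genes 4 were called higher after injury than after stimulation and 5 did not pass, with a median of 1.07. Ctss, a lysosomal protease of macrophages and microglia, had 85.2, 65.0 and 103 CPM after injury, 50.5, 44.1 and 39.1 in controls and 30.2, 35.3 and 21.9 after stimulation. The 3 groups did not overlap, with controls in the middle, and the direct difference was 1.54 ± 0.20 (adjusted p = 0.00018). C1qc, a chain of complement C1q, stood at 46.4, 44.8 and 52.8 CPM after injury and 22.2, 27.2 and 19.2 after stimulation (1.07 ± 0.18, adjusted p = 0.000901). It was above control after injury (1.18, adjusted p = 0.00063) and near it after stimulation (0.11, adjusted p = 0.69). Lyz2, lysozyme, was placed differently, with 62.0, 58.5 and 48.6 CPM after injury, 49.9, 56.3 and 41.3 in controls and 29.1, 26.5 and 24.6 after stimulation. Its direct difference of 1.08 ± 0.16 (adjusted p = 0.00042) came with a stimulated level below control (−0.88, adjusted p = 0.00067). Aif1, the actin-binding protein Iba1, was the other called member (1.26 ± 0.23, adjusted p = 0.0019). The scavenger receptor gene Mrc1 did not pass (0.52 ± 0.57, adjusted p = 0.59) and was below control in both treatments (−1.44, adjusted p = 0.048, and −1.95, adjusted p = 0.012).

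Of 12 antigen presentation genes 1 was called higher after injury than after stimulation and none lower. Against control 9 were higher after injury and 5 after stimulation. Tap2, the peptide transporter that loads class I molecules, had 50.4, 47.2 and 32.8 CPM after injury, 49.4, 42.6 and 39.0 after stimulation and 20.5, 17.1 and 12.8 in controls. Both treated groups lay above all controls and overlapped with each other, and Tap2 was 1.37 ± 0.23 above control after injury (adjusted p = 0.0012) and 1.38 ± 0.23 after stimulation (adjusted p = 0.00049). The direct difference had an interval of −0.48 to 0.47. H2-DMb1, a class II chaperone chain, was the called member (0.79 ± 0.24, adjusted p = 0.038), and its call was lost with the length and GC trend taken out (0.46, adjusted p = 0.16) and without any of 7 libraries, namely control replicate 1, injury replicate 1 or 2, replicate 3 of the wounded and stimulated group, or any stimulated library.

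Immediate early genes, which are transcribed within minutes of calcium, cyclic AMP or growth factor signals, included some that were higher after injury than after stimulation. Of 43 listed genes 13 were tested, 4 were called higher after injury and none lower, and the median log2 difference was 0.45. The cyclic AMP response element (CRE) is a textbook element of immediate early promoters, and which cells or signals acted here was not measured. Promoter sequence from RefSeq (GRCm38.p6) was at hand for 9 of the 13. The 250 bases before the start are printed for the 4 called genes. Each runs 5′ to 3′ on the strand of the gene, and capitals mark every TGACG, the core of the CRE, on either strand (CGTCA when on the other strand), including where it forms part of the full element TGACGTCA.
Fos, chr12:85473640-85473889, plus strand: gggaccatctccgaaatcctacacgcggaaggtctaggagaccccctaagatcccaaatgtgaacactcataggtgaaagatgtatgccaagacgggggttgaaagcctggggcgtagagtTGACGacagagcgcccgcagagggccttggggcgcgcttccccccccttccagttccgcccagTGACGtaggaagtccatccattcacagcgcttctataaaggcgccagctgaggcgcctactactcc
Dusp1, chr17:26508473-26508722, minus strand: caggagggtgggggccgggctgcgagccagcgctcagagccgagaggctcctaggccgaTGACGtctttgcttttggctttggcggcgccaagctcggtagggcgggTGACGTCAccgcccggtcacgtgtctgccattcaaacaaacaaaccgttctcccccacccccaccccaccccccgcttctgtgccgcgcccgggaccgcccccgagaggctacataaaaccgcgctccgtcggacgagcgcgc
Nr4a1, chr15:101266596-101266845, plus strand: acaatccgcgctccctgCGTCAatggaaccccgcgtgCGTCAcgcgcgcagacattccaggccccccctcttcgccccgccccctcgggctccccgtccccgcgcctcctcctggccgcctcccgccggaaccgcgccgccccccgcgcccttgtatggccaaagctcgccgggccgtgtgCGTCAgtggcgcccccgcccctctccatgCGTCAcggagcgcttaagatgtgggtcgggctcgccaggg
Klf4, chr4:55532476-55532725, minus strand: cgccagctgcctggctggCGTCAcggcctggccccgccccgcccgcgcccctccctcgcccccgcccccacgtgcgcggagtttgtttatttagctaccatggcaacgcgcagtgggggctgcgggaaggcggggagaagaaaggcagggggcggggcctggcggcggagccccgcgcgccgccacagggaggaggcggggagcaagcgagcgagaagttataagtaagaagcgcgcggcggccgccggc

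The CRE core was found 2 times in the Fos window, 3 times in that of Dusp1, 4 times in that of Nr4a1 and 1 time in that of Klf4. A full element holds a core on each strand, so 1 such site counts as 2 cores, here and in the shares that follow. Of 32851 mouse promoters of the same length 17.8% held at least 1 core, 3.9% at least 2 and 0.137% at least 4. The full element TGACGTCA occurred in Dusp1, 143 bases before the start, and in 1.55% of all promoters. Of the 9 windows 8 held at least 1 core, the 4 of the called genes among them, so uncalled genes hold cores too. Nr4a3 holds 4 and was not called (−0.05 ± 0.32, interval −0.71 to 0.62). Btg2 holds 2, both within its 1 full element, and was not called either (0.54 ± 0.28, interval −0.05 to 1.14). The CArG box, bound by serum response factor, occurred in Srf only among the 9 windows and in 1.47% of all promoters. Sequence more than 250 bases before the start was not searched, so a gene without a match here may hold one further upstream. These matches are descriptions of the letters and no binding was measured.

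Dusp1, a phosphatase that switches off MAP kinases, had 62.7, 66.6 and 44.0 CPM after injury, 26.6, 22.7 and 18.8 after stimulation and 11.9, 19.5 and 24.0 in controls. All injured libraries lay above all stimulated and control libraries, and the direct difference was 1.35 ± 0.23 (adjusted p = 0.0011). Dusp1 is also 1 of 5 tested glucocorticoid response genes, of which it alone was called, and the part of that response was not tested. Klf4, a zinc finger factor, had 59.5, 50.8 and 44.7 CPM after injury and 20.6, 26.8 and 25.7 after stimulation (1.08 ± 0.23, adjusted p = 0.0051), with stimulation at 0.10 relative to control (adjusted p = 0.79). Fos, the AP-1 subunit, had 17.3, 21.7 and 13.6 CPM after injury, 5.33, 9.15 and 8.92 after stimulation and 6.54, 5.92 and 7.61 in controls. Fos differed by 1.16 ± 0.27 (adjusted p = 0.0089), a call lost without injury replicate 2 (adjusted p = 0.056). Nr4a1, a nuclear receptor, was at 8.54, 8.71 and 3.75 CPM after injury, with replicate 3 the lowest, and 2.55, 2.76 and 1.83 after stimulation. Its difference of 1.57 ± 0.43 (adjusted p = 0.022) was lost without injury replicate 1 or 2 or stimulation replicate 1 or 3 (adjusted p up to 0.11). Without injury replicate 2 the list had 2 calls.

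The other 9 immediate early genes were not called between the treatments, and several were above control. Arc, which acts at synapses, ranged over 14.9 to 21.6 CPM after injury, 9.47 to 23.9 after stimulation and 4.92 to 7.54 in controls. Both treatments were called against control (1.56, adjusted p = 0.0029, and 1.26, adjusted p = 0.0078), and the direct difference was 0.31 ± 0.31 (interval −0.35 to 0.96). Junb (1.30 and 0.85) and Ier2 (1.22 and 0.84) were likewise called in each treatment against control and not between them (adjusted p = 0.13 and 0.29). Srf, the serum response factor itself, was called in both treatments as well (0.62 and 1.05), and Btg2 (1.03) and Sik1 (0.92) passed after injury, with stimulation at 0.49 and 0.32.

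The 5 tested genes of the mitochondrial genome were all called higher in injured than in stimulated ganglia, with a median of 1.17, while they were below control after stimulation. Injury against control called none of the 5 (median −0.03), and stimulation against control called all 5 lower (median −1.17). The cytochrome c oxidase subunit gene mt-Co2 had 1203, 836 and 823 CPM after injury, 1277, 572 and 1229 in controls and 239.9, 297 and 251 after stimulation. Injured and control libraries overlapped and every stimulated library was below both, and the direct difference was 1.86 ± 0.30 (adjusted p = 0.00088). The cytochrome b gene mt-Cytb had 43144, 43946 and 49288 CPM after injury and 21505, 25599.9 and 16076 after stimulation (1.11 ± 0.22, adjusted p = 0.0031). With the trend on length and GC content taken out 2 of the 5 stayed called, mt-Co2 (0.99, adjusted p = 0.018) and mt-Nd3 (0.73, adjusted p = 0.029), while mt-Cytb was at 0.29 (adjusted p = 0.300).

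Ribosomal protein genes, whose transcripts are short, were higher after injury in part. Of the 6 that could be measured 4 were higher after injury and none lower. Rps27a, which is made as a fusion with ubiquitin, had 735, 940.0 and 1147 CPM after injury, 907, 803 and 874 in controls and 323, 290.0 and 395 after stimulation (1.48 ± 0.23, adjusted p = 0.00069). Stimulated libraries lay below all injured and control libraries, as they did for Rpl26, a protein of the large subunit (1824, 1883 and 2031 CPM after injury and 894, 835 and 654 after stimulation; 1.27 ± 0.18, adjusted p = 0.00039). With the trend taken out these were the 2 that stayed called (0.84 and 0.95), and without stimulation replicate 3 the count was also 2. Nuclear genes of oxidative phosphorylation had 4 of 15 higher and none lower, among them Ndufb4 of complex I (0.96 ± 0.19, adjusted p = 0.0039), which was the only one left with the trend taken out.

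**Figure D4:**
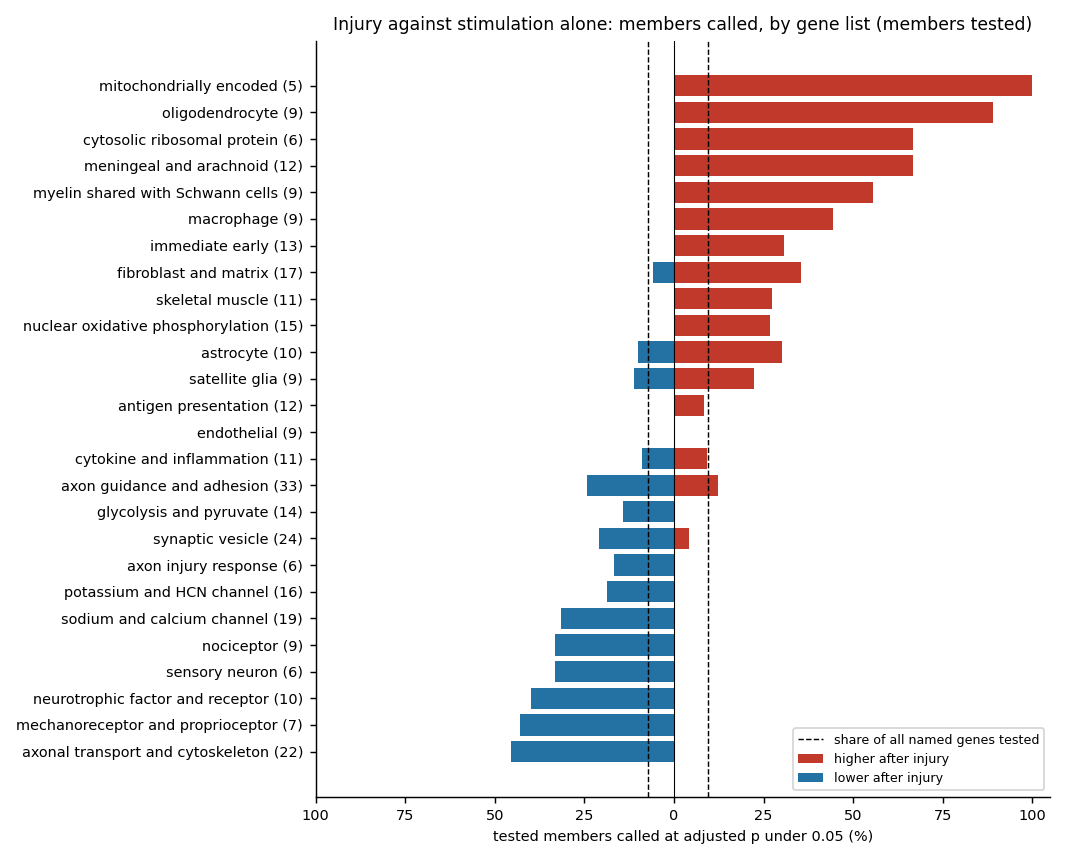
Percent of tested members of each gene list (rows, with the number tested) called higher (bars to the right) or lower (bars to the left) after injury than after stimulation alone, with dashed lines at the 9.35% and 7.29% of all named genes. Oligodendrocyte genes have 8 of 9 higher and none lower, and axonal transport and cytoskeleton genes have 10 of 22 lower and none higher.

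Of 22 tested genes of the neuronal cytoskeleton and axonal transport 10 were lower in injured than in stimulated ganglia and none was higher. The other 12 did not pass, 7.00 of them with a log2 difference above 0, and the median over the list was −0.89. With the length and GC trend taken out 10 were lower and 1 higher, with a median of −0.42. Nefm, the medium neurofilament subunit, had 663, 971 and 878 CPM after injury, 727, 722 and 713 in controls and 1808, 1647 and 1792 after stimulation. Injured and control libraries overlapped and the stimulated ones stood above, and the difference was −1.06 ± 0.17 (adjusted p = 0.00079). Map1a, a microtubule-associated protein, had 85.3, 84.1 and 98.9 CPM after injury and 235, 227 and 415 after stimulation, where replicate 3 was highest (−1.71 ± 0.26, adjusted p = 0.000603). It was above control after stimulation (1.08, adjusted p = 0.0045), as was Dync1h1, the dynein heavy chain (0.90, adjusted p = 0.00052). The direct difference of Dync1h1 was −0.72 ± 0.15 (adjusted p = 0.0052), and it was not called with the trend taken out (−0.22, adjusted p = 0.37).

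Other members were below control after injury and not called against control after stimulation. Sptan1, alpha spectrin of the submembrane skeleton, had 12.2, 8.60 and 16.8 CPM after injury, 40.0, 36.9 and 66.8 after stimulation and 29.4, 42.4 and 42.2 in controls (−1.95 ± 0.27, adjusted p = 0.00036). Injury was −1.61 relative to control (adjusted p = 0.0012) and stimulation 0.34 (adjusted p = 0.35). Its partner Sptbn1 differed by −2.04 ± 0.37 (adjusted p = 0.0019), at 7.54, 6.05 and 7.22 CPM after injury and 23.7, 21.7 and 39.7 after stimulation. The kinesin gene Kif1a, which carries synaptic vesicle precursors, was at 30.8, 27.6 and 35.7 CPM against 75.3, 79.8 and 133 (−1.62 ± 0.27, adjusted p = 0.00091). Klc1, a kinesin light chain, was above control in both treatments (0.80 and 0.72) and was not called between them (0.08 ± 0.20, interval −0.35 to 0.51).

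Ion channel genes that passed were lower after injury. Among 19 sodium and calcium channel genes 6 were lower and none higher, a count of 3 without injury replicate 1 or 2 and of 10 without replicate 2 of the wounded and stimulated group. Cacna1b, the pore of the N-type calcium channel at presynaptic terminals, had 1.33, 2.34 and 2.22 CPM after injury and 6.26, 5.62 and 9.71 after stimulation (−1.88 ± 0.38, adjusted p = 0.0036). Cacnb3, an accessory subunit, had 82.1, 76.4 and 84.4 against 137, 112 and 121 CPM (−0.60 ± 0.13, adjusted p = 0.0053). Groups did not overlap for either gene. Scn10a, the sodium channel Nav1.8 of nociceptors, had 195, 185 and 193 CPM after injury and 299.7, 240.4 and 326 after stimulation (−0.60 ± 0.17, adjusted p = 0.024). That call was lost with the trend taken out (−0.22, adjusted p = 0.42) and without any injured library or stimulation replicate 1 or 3 (adjusted p up to 0.088). Of 16 potassium and HCN channel genes 3 were lower and none higher. Hcn2, a pacemaker channel of nociceptors, was above control in both treatments (1.11, adjusted p = 0.00049, and 1.41, adjusted p = 5.0e-05) with a direct difference of −0.30 ± 0.16 (interval −0.63 to 0.03).

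The calcium-activated potassium channels of the KCNN family, named in the title of the series, were not called between the treatments. Kcnn4 had 7.65, 7.86 and 6.39 CPM after injury, 10.8, 9.15 and 6.05 after stimulation and 3.88, 4.66 and 4.22 in controls. Treated libraries of both kinds lay above every control and overlapped with each other, and the direct difference was −0.24 ± 0.31 (interval −0.89 to 0.42, adjusted p = 0.66). Kcnn3 was near the limit of detection, at 1.55, 0 and 0.694 CPM after injury and 0.464, 1.10 and 0.796 after stimulation (−0.08 ± 0.96, adjusted p = 0.97), and Kcnn1 and Kcnn2 were not measured under the naming rule.

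Of 10 neurotrophic ligands and receptors 4 were lower after injury than after stimulation and none higher. With the length and GC trend taken out 5 were lower and 1 higher. Ngfr, the p75 neurotrophin receptor of sensory neurons and Schwann cells, had 442, 436 and 488 CPM after injury, 824, 702 and 719 after stimulation and 307, 354 and 258 in controls. Both treatments were above control (0.57, adjusted p = 0.015, and 1.29, adjusted p = 9.8e-05) and stimulated libraries lay above all injured ones (−0.72 ± 0.16, adjusted p = 0.00796). Ngfr is also 1 of 4 tested genes of non-myelinating and repair Schwann cells, of which 2 were lower and none higher (median −0.45), and their part in the neurotrophic count was not tested. Cntfr, the receptor of ciliary neurotrophic factor, was at 1.29 and 1.35 against control and −0.06 ± 0.22 between the treatments (adjusted p = 0.87). Among 24 synaptic vesicle genes 5 were lower and 1 higher, and 9 were lower without replicate 2 of the wounded and stimulated group. Dnm1, the dynamin of synaptic endocytosis, had 85.0, 88.0 and 101 CPM after injury, 78.8, 83.4 and 73.1 in controls and 211, 218 and 230.0 after stimulation (−1.27 ± 0.16, adjusted p = 0.00018). Slc17a7, a vesicular glutamate transporter, had 95.3, 155 and 125 CPM after injury and 241, 239.6 and 191 after stimulation (−0.84 ± 0.17, adjusted p = 0.0045). For both genes the groups did not overlap. Slc17a7 is also 1 of the 2 pituitary and brain genes called lower, and the part of such tissue in its difference was not tested. The 6 tested axon injury response genes had a median log2 difference of 0.41, with 4 above 0, and only 1 was called. It was Stat3, a mediator of axon regeneration, which was lower after injury (−1.10 ± 0.24, adjusted p = 0.0059). Its levels were 23.5, 35.3 and 33.5 CPM after injury and 58.1, 50.8 and 88.8 after stimulation.

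Of 6 tested sensory neuron markers 2 were lower after injury, Nefm and Avil, and the Avil call (−0.53 ± 0.15, adjusted p = 0.022) was lost without any injured library or stimulation replicate 1. Thy1 (−0.12 ± 0.23, interval −0.60 to 0.35) and Elavl3, an RNA-binding protein of neurons (−0.08 ± 0.18, interval −0.46 to 0.30), were each above control in both treatments. Of 9 nociceptor genes 3 were lower and none higher. P2rx3, an ATP-gated channel, had 74.2, 64.1 and 79.7 CPM after injury and 103, 99.5 and 132 after stimulation, with no overlap (−0.62 ± 0.17, adjusted p = 0.023). This call was lost without injury replicate 1 or 2 or stimulation replicate 3 (adjusted p up to 0.11).

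Axon guidance and adhesion genes were called in both directions, 4 higher and 8 lower of 33 after injury, with a median of −0.27. With the length and GC trend taken out 7 were higher and 6 lower, with a median of −0.05, so the lean to lower calls was not kept. Robo2, a receptor for Slit repellents, had 1.33, 1.91 and 1.25 CPM after injury, 5.33, 4.96 and 11.4 after stimulation and 7.65, 5.01 and 5.50 in controls (−2.26 ± 0.41, adjusted p = 0.0019). Injured libraries lay below all stimulated and control libraries, and stimulation stood at 0.27 against control (adjusted p = 0.63). Gpm6a, a membrane protein of growing neurites, was higher after injury than after stimulation (1.07 ± 0.19, adjusted p = 0.0015) although both treatments were below control. Its levels were 110.3, 78.6 and 99.6 CPM after injury, 41.5, 43.2 and 52.2 after stimulation and 179, 172 and 153 in controls, with no overlap. Sema7a, a membrane-anchored semaphorin, was lower after injury (−0.74 ± 0.15, adjusted p = 0.0035) and above control in both treatments. Draxin, a repellent of the netrin pathway, was above control in each treatment (1.86 and 2.20), with a direct interval of −1.30 to 0.60.

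None of 9 endothelial genes was called between the treatments (edgeR, and none at an unadjusted p under 0.05), while 3 were above control after injury and 4 after stimulation. Tie1, a receptor of vessel walls, had 17.0, 19.9 and 21.4 CPM after injury, 16.8, 22.5 and 21.3 after stimulation and 8.87, 11.1 and 6.91 in controls. Both treated groups stood above all controls (1.11, adjusted p = 0.00205, and 1.17, adjusted p = 0.000802) and the direct interval was −0.49 to 0.37. Pdk2, a kinase that restrains pyruvate dehydrogenase, had 157, 163 and 158 CPM after injury, 133, 169 and 109 after stimulation and 51.9, 51.9 and 43.3 in controls. Its values against control were 1.70 (adjusted p = 0.00015) and 1.48 (adjusted p = 0.00011), and the direct interval was −0.18 to 0.62. Hk1, the hexokinase of nerve and brain, was also above control in both but higher after stimulation (−0.75 ± 0.14, adjusted p = 0.0021), at 109, 116 and 118 CPM after injury and 193, 189 and 194 after stimulation.

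**Figure D5:**
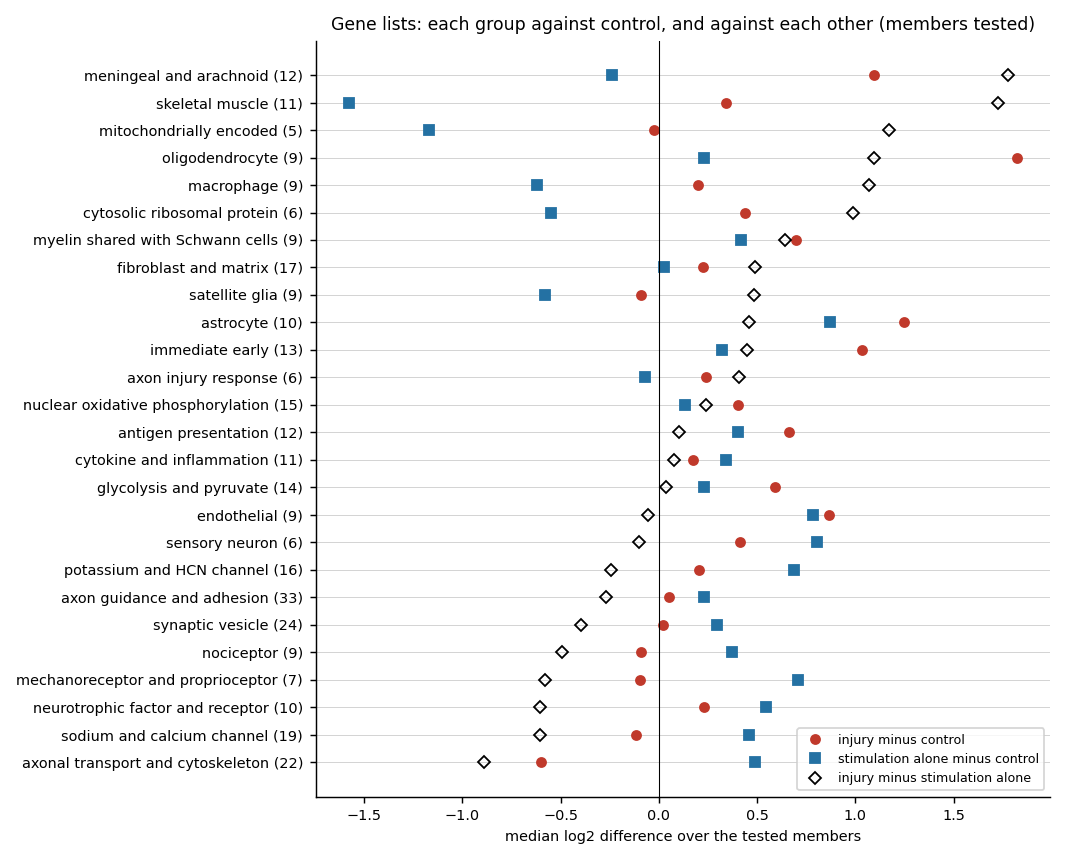
Median log2 difference (horizontal axis) of the tested members of each gene list (rows, with the number tested) for injury against control, stimulation alone against control and injury against stimulation alone, the first and second with the same 3 control libraries. Against control, oligodendrocyte genes have medians of 1.82 and 0.23, mitochondrially encoded genes −0.03 and −1.17, and endothelial genes 0.86 and 0.78.

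The 12 highest and 12 lowest differences among called, non-overlapping named genes held many low counts. Among the 12 highest was Trdn, a triadin of the muscle calcium release unit, with 2.44, 6.27 and 4.03 CPM after injury, 0.116, 0 and 0.159 after stimulation and 2.11, 0.341 and 7.96 in controls. Lmod2, a leiomodin of striated muscle, had 2.22, 2.44 and 2.92 CPM after injury, 0, 0 and 0.159 after stimulation and 3.77, 0 and 11.4 in controls. Stimulated libraries held only 3 counts of Trdn and 2 of Lmod2 in all, and the controls spread beyond the injured libraries on both sides. The Lmod2 call (adjusted p = 0.023) was lost without any 1 of the 6 libraries compared (adjusted p up to 0.094) and with limma voom (adjusted p = 0.066). Vnn1, a pantetheinase, had 4.33, 2.76 and 2.08 CPM after injury and 0, 0.551 and 0.239 after stimulation (3.47 ± 0.73, adjusted p = 0.0047). Among the 12 lowest was Camta1, a calmodulin-binding transcription factor of neurons, with 6.77, 5.74 and 8.47 CPM after injury, 23.4, 25.4 and 62.0 after stimulation and 25.5, 28.6 and 18.9 in controls (−2.41 ± 0.36, adjusted p = 0.00054). Injured libraries lay below all stimulated and control libraries, as they did for Myh10, non-muscle myosin IIB (4.88, 6.69 and 12.1 CPM after injury, 29.5, 24.8 and 46.2 after stimulation; −2.11 ± 0.36, adjusted p = 0.0011). Onecut1, a homeobox factor, was at 0.887, 0.637 and 0.833 against 4.06, 3.09 and 4.86 CPM (−2.34 ± 0.47, adjusted p = 0.0037), and Grid2ip, a scaffold of the delta glutamate receptor, at 0.887, 0.425 and 0.555 against 3.36, 3.75 and 5.65 (−2.75 ± 0.49, adjusted p = 0.0015).

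The genes behind the main values lie at these GRCm38 positions, given as the bounds of the whole gene, with the exon bases under the interval beside them. Mog (chromosome 17, 37010743 to 37023398) was read through 114 bp of exon, all of it coding. Ptgds (chromosome 2, 25466709 to 25470046) was read through 1649 bp, of which 567 are coding and 1082 untranslated or noncoding. Slc6a13 (chromosome 6, 121300227 to 121337733) was read through 239 bp, 147 of them coding. Dcn (chromosome 10, 97479609 to 97518143) was read through 1249 bp, 234 coding, and Ctss (chromosome 3, 95526786 to 95556403) through 166 bp, 166 coding. Nefm (chromosome 14, 68082590 to 68124846) was read through 302 bp, 302 coding, and Fos (chromosome 12, 85473890 to 85477273) through 637 bp, 572 coding.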

How the data were processed

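Bulk RNA sequencing of 12 libraries in 4 groups of 3 was analysed. The deposited values are whole-number counts per interval, not normalized; per the file headers the authors made them with featureCounts 2.0.6 on Ensembl 110 gene models, on paired input, with reads allowed in several overlapping genes and no strand. FastQC, DESeq2 and Salmon 1.10.2 appear in the submitters' processing notes. Per the file headers the alignments lay in a folder named for HISAT; no source used here gives their build.

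Of 56941 deposited intervals, 9968 were named by position, where an interval lay over at least 100 bp of exon of exactly 1 GENCODE M21 gene on GRCm38, and where several intervals fit a gene the one with the longest exon overlap was kept. Names deposited with the intervals were not used. Tests used all 13053 intervals that passed filterByExpr, in edgeR 4.0.16 (quasi-likelihood, robust, TMM scaling, 4 group means, all 12 libraries, Benjamini-Hochberg), with a biological coefficient of variation of 0.235. At unadjusted p under 0.05 there were 3753 intervals. The trend on transcript length and GC content was removed with natural splines as offsets. Alternatives were a fit of the 6 libraries alone, a replicate block, DESeq2 1.42.0, voom quality weights in limma 3.58.1, other scaling, no filter, stricter naming and each library left out. The fit, in R 4.3.3, was tested on simulated data. Python 3.11.15 with pandas 2.3.3, numpy 2.4.6 and, for figures, matplotlib 3.10.9 did the rest.

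The genes named are Kcnn1 to Kcnn4, the 12 highest and 12 lowest log2 differences among called genes with a mean of at least 1 CPM and no overlap between the groups (without predicted genes, clone names and pseudogenes), and, from each list described, at most 4 members by smallest p. Other list members given as examples were chosen after their values were seen. Of 1367 entries in 41 lists 1361 are known symbols. Members and lists were chosen with earlier results of these data known.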

Additional observations from a re-analysis of the deposited data

How the results depend on the processing

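The labels share replicate numbers. Same-numbered deviations correlated at −0.064, 0.051 and 0.069, and differently numbered ones ranged from −0.133 to 0.0998. With 3 libraries a group these values cannot show or exclude a pairing of the samples. With a replicate block 1503 intervals were called, and the Avil and Scn10a calls were lost (adjusted p = 0.051 for each). With the block and the trend removed together, 278 named genes were higher and 231 lower, and 2 mitochondrial and 3 sodium or calcium channel genes were called. With the trend alone removed 2 mitochondrial genes were called. Only the 6 libraries compared gave 2418 intervals and 10 lower sodium or calcium channel genes, DESeq2 gave 2225 intervals, 1072 higher and 1153 lower, RLE scaling gave 908 higher and 941 lower, and voom with quality weights gave 2825, with 1572 intervals and 680 named genes higher. Where naming needed 200 bp of exon, 5 of 6 tested oligodendrocyte and 2 of 5 macrophage genes were higher. Where it needed an interval at least 50% exon, a setting chosen after seeing the data, 173 named genes were higher and 64 lower, with 4 of 4 tested oligodendrocyte and 1 of 4 meningeal genes higher, 4 of 8 cytoskeletal and 1 of 2 channel genes lower, and 0 macrophage genes tested. Without 1 library the total ran from 903 to 2604, higher intervals from 399 to 1178, lower intervals from 425 to 1426, named genes higher from 201 to 514 and named genes lower from 173 to 577. In the same fits oligodendrocyte calls ran from 5 to 8, meningeal calls from 6 to 9, macrophage and mitochondrial calls from 4 to 5, cytoskeletal calls from 10 to 11, immediate early calls from 2 to 4 and channel calls from 3 to 10. Signs reversed in some settings for Arc, Cntfr, Draxin, Elavl3, Hdc, Kcnn3, Klc1, Mrc1, Nr4a3, Prx, Tap2, Tie1 and Uchl1, none of which was called. With the trend removed, Kcnn3 was at 0.14, Uchl1 was at −0.15, Elavl3 was at 0.17, Klc1 was at −0.0076, Nr4a3 was at 0.22, Tap2 was at 0.091 and Tie1 was at 0.17. With the replicate block and the trend removed, Kcnn3 was at 0.11, Uchl1 was at −0.14, Elavl3 was at 0.17, Klc1 was at −0.0050, Nr4a3 was at 0.24, Tap2 was at 0.081 and Tie1 was at 0.17. With voom, Klc1 was at −0.0092, Nr4a3 was at 0.038, Prx was at −0.031 and Tie1 was at 0.019. Without 1 library, Arc ran from −0.026 to 0.73, Cntfr ran from −0.31 to 0.060, Draxin ran from −0.77 to 0.038, Elavl3 ran from −0.21 to 0.0028, Hdc ran from −0.59 to 0.29, Kcnn3 ran from −1.26 to 0.51, Klc1 ran from −0.097 to 0.13, Mrc1 ran from −0.013 to 0.89, Nr4a3 ran from −0.24 to 0.18, Prx ran from −0.26 to 0.22, Tap2 ran from −0.15 to 0.15, Tie1 ran from −0.20 to 0.022 and Uchl1 ran from −0.0035 to 0.26. Of 98 chosen genes that were called, 59 stayed called in all 12 fits without a library and 81 with the trend removed. The cause of these moves was not tested. Depth limits genes near 1 CPM, where 1 library holds on the order of 10 reads of a gene.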
